A study of Saccharomyces cerevisiae with 32 samples.

Results

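The 10 genes described here encode the cytosolic Hsp90 chaperones of budding yeast, HSP82 and HSC82, and 8 of their co-chaperones, STI1, AHA1, HCH1, SBA1, CPR6, CPR7, CNS1 and YDJ1. They were chosen by name, with earlier results of these data known. All 10 had an RNA probe among the 6772 gene probes tested, and 9 had the intergenic region at their 5′ end among the 6392 regions tested; no region was paired with the CPR6 promoter in the annotation used here. The ChIP arrays carried DNA precipitated from Saccharomyces cerevisiae strains with HA-tagged TBP, TAF1, Spt3, Mot1 or Bdf1, or from the strain labelled Null, whose labels name no tag and which served as the background of the precipitation, with 4 arrays per factor or strain. In each, cells grown in YPD at 25 °C to an OD600 near 0.8 were brought to 37 °C for 15 min and set against cells mock treated at 25 °C for 15 min on the same 2-colour array, after 2 h in 1% formaldehyde at 25 °C. A further 4 arrays compared input DNA of the HA-TAF1 strain with that of the HA-Spt3 strain. RNA was measured in cells labelled Null (BY4741) only, on 2 arrays of heat shocked against mock treated cells and 2 of mock treated cells in both channels, so the RNA values do not come from the HA-tagged strains.

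Hsp90 is an ATP-driven chaperone that brings kinases, transcription factors and other clients to their active state. Clients are first bound by Hsp70 and its J-protein partner, here Ydj1, and passed to Hsp90 through the adaptor Sti1; Aha1 and Hch1 stimulate the ATPase, Sba1 (the yeast p23) holds the closed, ATP-bound form, and Cpr6, Cpr7 and Cns1, like Sti1, bind the C-terminal end of Hsp90 through TPR repeats. In yeast HSC82 is the constitutive and HSP82 the strongly heat-inducible Hsp90 gene, and heat shock factor Hsf1 is known to drive many chaperone genes. TBP, the TATA-binding protein, nucleates the transcription machinery. TAF1 belongs to TFIID and Spt3 to SAGA, the complexes that deliver TBP; Mot1 strips TBP off DNA with energy from ATP, and Bdf1 carries bromodomains and associates with TFIID.

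Every value below is a log2 ratio, heat shock over mock treatment, set against the median of its array and with the channel effect taken off, and fitted changes carry the standard error of the fit (SE). A change was called at a Benjamini-Hochberg adjusted p under 0.05 in limma, adjusted over all probes or all regions. The sources used here do not state which channel is the numerator, so the directions are likely ones, read from other genes. With RNA as channel 2 over channel 1, 128 of 129 cytosolic ribosomal protein genes were negative and all 8 of a list of general stress genes positive. With ChIP as channel 1 over channel 2, the TBP change ran with the RNA change over 2486 regions that serve 1 promoter, members and their neighbours left out (Spearman rho 0.44 across regions, which are not independent replicates). Under the other ChIP reading every ChIP sign below turns round, and the sizes and the total counts of calls stay. Array spread (the scaled median absolute deviation) ran between 0.10 and 0.53 over the ChIP arrays and was widest on Null array A. No label says that arrays of a group came from separate cultures, so the p-values measure the spread between these arrays, and in bulk cultures a change in some cells and a change in RNA per cell cannot be told apart.

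Heat shock raised the RNA of both Hsp90 genes and of most of their co-chaperones. Of the 10 genes 7 rose and 1 fell, where 18.2% of all probes were called higher and 18.9% lower. The median of the 10 was 1.21, against 0.01 over all probes. The rises covered the Hsp90 genes, the adaptor gene STI1, both ATPase activator genes, the p23 gene SBA1 and the cyclophilin gene CPR6. The fall was that of CNS1, and CPR7 and YDJ1 were not called. With all arrays scaled to equal spread 4 of the 8 calls held, those of HSP82, STI1, AHA1 and CPR6, and HSC82 (adjusted p = 0.0783), HCH1 (0.0509), SBA1 (0.464) and CNS1 (0.0681) were not called. The share of all probes called in that fit was not counted.

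HSP82 was at 2.25 and 2.02 on the 2 heat arrays, against -0.07 and 0.29 on the 2 arrays of mock treated cells. That was a rise of 2.13 ± 0.17 (SE), or 4.39-fold, with a limma adjusted p of 0.000213, and 1.65% of all probes were higher. HSC82 was at 1.10 and 1.13 on the heat arrays, against 0.05 and -0.09 on the mock arrays. Its rise of 1.11 ± 0.15, or 2.16-fold, also passed the test (limma adjusted p = 0.00154). The change of HSP82 exceeded that of HSC82 by 1.15 and 0.89 on the heat arrays, while on the mock arrays the 2 genes differed by -0.12 and 0.38. With 2 heat arrays this difference was not tested. HSP82 and HSC82 are close copies, and how far their probes read each other's RNA is not known, so the values of both carry that uncertainty.

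STI1, whose product hands clients from Hsp70 to Hsp90, was at 1.82 and 1.89 on the heat arrays, against -0.08 and 0.02 on the mock arrays. With the channel effect left in, STI1 was at 1.63 and 2.08, against 0.11 and 0.21. It rose by 1.85 ± 0.15, or 3.61-fold (limma adjusted p = 0.000211). YDJ1, the J-protein at the Hsp70 step, was at -0.11 and 0.21, against 0.06 and -0.37. Its estimate of 0.05 ± 0.19 was not called (adjusted p = 0.862), with a 95% interval of -0.41 to 0.50. The heat and mock values of YDJ1 overlapped, and those of STI1 lay far apart.

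Both genes of the related ATPase activators rose. AHA1 was at 2.25 and 2.56 on the heat arrays, against 0.06 and -0.37 on the mock arrays, a rise of 2.41 ± 0.19 or 5.31-fold (limma adjusted p = 0.000199). HCH1 was at 1.16 and 1.47, against -0.07 and -0.25, a rise of 1.31 ± 0.17 or 2.49-fold (0.00143). AHA1 exceeded HCH1 by 1.10 and 1.09 on the 2 heat arrays, a difference that was not tested. With the channel effect left in, AHA1 was at 2.25 and 2.56 and HCH1 at 1.02 and 1.61, so the gaps were less alike. SBA1 was at 0.66 and 0.67, against 0.32 and -0.34 on the mock arrays. Its rise of 0.66 ± 0.19 or 1.58-fold was the smallest called among the 10 genes (0.0363). The SBA1 call was lost without either heat array (0.237 without A, 0.247 without B) and without mock array A (0.0504), while HCH1 was not called without heat array B (0.0513).

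Among the genes of the TPR co-chaperones other than Sti1, CPR6 rose, CNS1 fell and CPR7 was not called. CPR6, a peptidyl-prolyl isomerase gene of the cyclophilin family, was at 2.64 and 2.41 on the heat arrays, against 0.09 and 0.13 on the mock arrays. Its rise of 2.53 ± 0.16 or 5.77-fold was the largest among the 10 genes (limma adjusted p = 9.14e-05). CPR7, the related cyclophilin gene, was at -0.13 and -0.74, against 0.27 and 0.33. Before the channel effect was taken off, CPR7 was at 0.15 and -1.03, against -0.02 and 0.04. Its estimate of -0.44 ± 0.22 was not called (adjusted p = 0.171), and the 2 heat arrays pulled it opposite ways: it was -1.04 and called without heat array A (0.0386), and 0.17 and not called without heat array B (0.647). CPR6 exceeded CPR7 by 2.78 and 3.15 on the 2 heat arrays, a difference that was not tested. CNS1, an essential gene, was at -1.35 and -1.26, against -0.01 and -0.07. It fell by 1.31 ± 0.15 on the log2 scale, or 2.47-fold (0.000767).

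**Figure D1:**
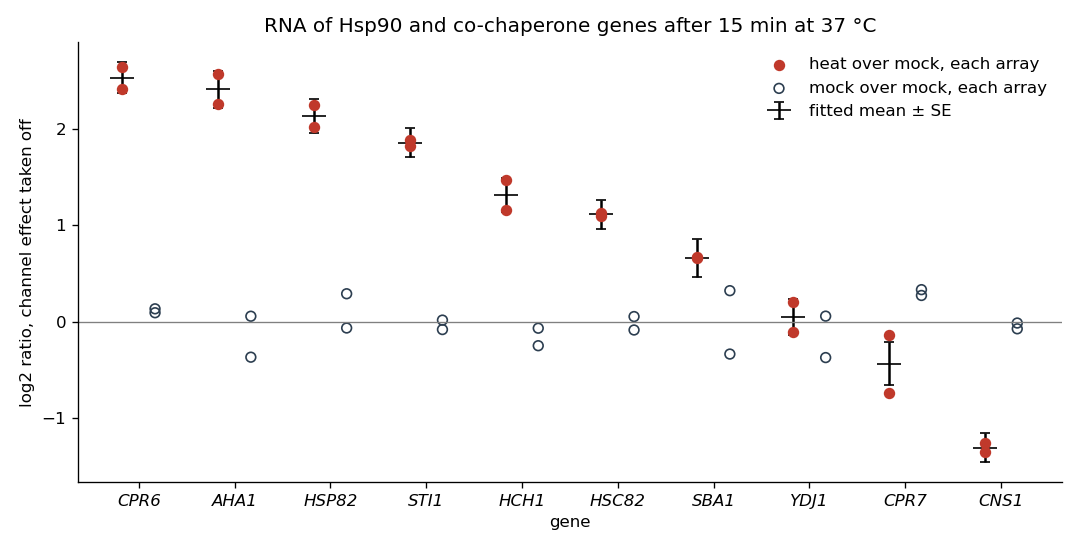
RNA log2 ratios of the 10 genes, ordered by their change; filled points are the 2 arrays of heat shocked over mock treated cells, open points the 2 arrays of mock treated cells in both channels, and the bar is the fitted mean with its SE. CPR6 (2.53) and AHA1 (2.41) are highest, YDJ1 lies at 0.05, and CNS1 (-1.31) lies below all mock values.

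In the order of the RNA changes, neighbours were set apart by the gap over the combined SE of both fits, as a description. CPR6, AHA1, HSP82 and STI1 each followed the one above by less than 2 combined SEs, as did HSC82 after HCH1, SBA1 after HSC82 and CPR7 after YDJ1. The gaps over 2 combined SEs were those between STI1 and HCH1 (0.54), between SBA1 and YDJ1 (0.61) and between CPR7 and CNS1 (0.87).

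Other parts of the Hsp90 system did not all move with these genes. For the counts that follow, 18.2% of all probes were called higher and 18.9% lower. Of 7 other Hsp90 cofactor genes 0 rose and 3 fell in limma (1 higher and 3 lower at an unadjusted p under 0.05, which 47% of all probes had in either direction), with a median of 0.14: the phosphatase gene PPT1 fell by 1.77 ± 0.19 on the log2 scale (limma adjusted p = 0.000663), and the ATPase genes RVB1 and RVB2, whose products act with Hsp90 in the assembly of large complexes, fell by 0.77 ± 0.19 (0.0198) and 0.62 ± 0.15 (0.0176). Of 10 genes of the Hsp70 and disaggregase machinery that works with Hsp90, 7 rose and 1 fell, with a median of 1.10. They were led by the Hsp70 genes SSA4 at 6.47 ± 0.21 and SSA3 at 3.82 ± 0.16 and by the disaggregase gene HSP104 at 3.02 ± 0.22. Of 7 genes of known Hsp90 clients 2 rose and 1 fell, with a median of 0.17, counts near the shares of all probes. SLT2, a MAP kinase gene, rose by 0.97 ± 0.16 (0.00373), CMP2 (also named CNA2), a calcineurin gene, rose by 0.63 ± 0.16 (0.0231), and the kinase gene SWE1 fell by 0.57 ± 0.15 (0.0238). HSF1 itself rose by 0.53 ± 0.16 (0.0388).

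**Figure D2:**
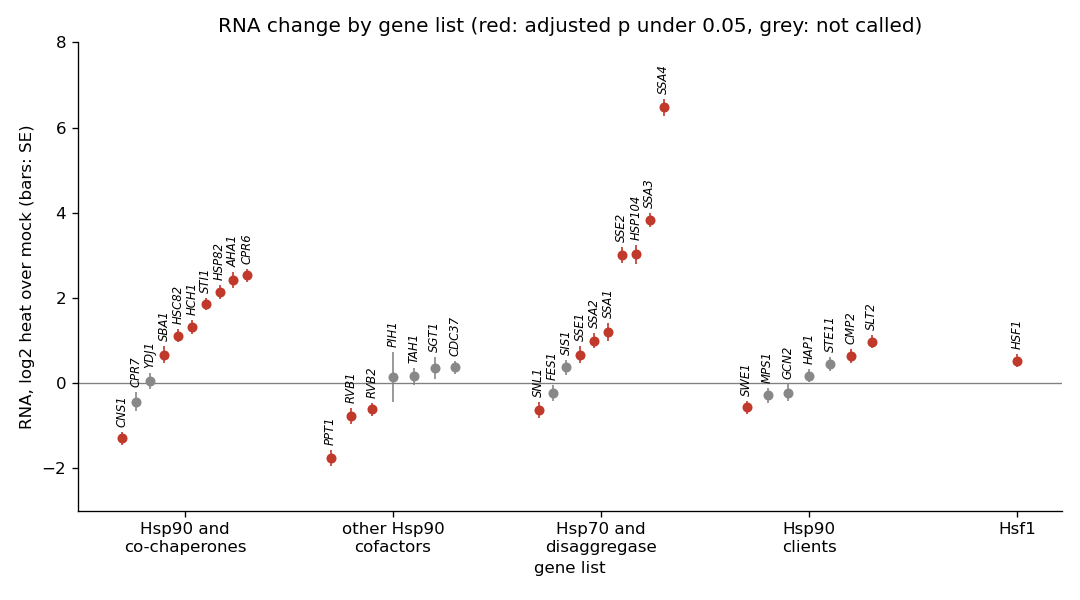
RNA change of each gene (log2 heat over mock, with SE) by list; red points were called and grey points were not. The called Hsp90 cofactors outside the 10 genes (PPT1, RVB1 and RVB2) lie below 0, while SSA4 reaches 6.47 in the Hsp70 and disaggregase list.

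On the ChIP arrays at least 1 factor was called at 5 of the 9 promoter regions, those of HSP82, HSC82, STI1, SBA1 and CNS1. The share of all regions with a call for at least 1 factor was not counted, so this count has nothing to be set against. TBP rose at 2 and fell at 1, where 8.35% of all regions were called higher and 4.01% lower. TAF1 rose at 2 and fell at 1 (12.2% and 8.67% of all regions). Mot1 rose at 3 and fell at 0 (8.57% and 4.18%), and Bdf1 rose at 1 and fell at 0 (8.42% and 7.81%), with 5 and 4 of the 9 at an unadjusted p under 0.05 in either direction (25.4% and 30.7% of all regions). Spt3 was called at 0 of the 9 in limma, with 2 at an unadjusted p under 0.05 (21% of all regions), and 3.88% of all regions were called higher and 1.77% lower. Null was also called at 0 (0.0156% of all regions higher and 0.0156% lower), with 0 at an unadjusted p under 0.05 (19.9% of all regions). Without centring the arrays on their medians 0 of the 9 were called for TBP, TAF1 or Bdf1, and 7 were called lower for Null. The shares of all regions called in that fit were not counted, and its medians over all regions lay at -0.91 for Null and -1.16 for Mot1. The 3 Mot1 rises then turned to -0.39 at HSP82, -0.57 at HSC82 and -0.31 at STI1, none of them called, and Mot1 was called lower at 4 others, SBA1 (-1.06, adjusted p = 0.00433), CPR7 (-1.22, 0.00218), CNS1 (-1.32, 0.0016) and YDJ1 (-0.79, 0.0267), so each change is one relative to the other regions of the array. Over the 9 regions Mot1 had the highest median, 0.39 (0.00315 over all regions). The median of Spt3 was 0.22 (0.01 over all regions), that of TBP 0.13 (-0.02), that of TAF1 0.10 (-0.01), that of Bdf1 -0.07 (-0.01) and that of Null 0.01 (-0.01).

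Several of these regions serve more than 1 gene. The HSP82 region also holds the promoter of YAR1, the CPR7 region that of GEA1, the CNS1 region that of RPB5 and the YDJ1 region that of MTQ1, and an occupancy change there cannot be given to one of the 2 genes. The regions of HSC82, STI1, AHA1 and HCH1 lie behind the 3′ end of the gene to their left, and that of SBA1 lies between a transfer RNA gene and SBA1.

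At the HSP82 promoter TBP and Mot1 rose, and TAF1, Spt3 and Bdf1 were not called. TBP was at 1.13, 1.07, 0.25 and 0.79 on its 4 arrays, against -0.27, 0.06, -0.12 and 0.05 on the Null arrays. The TBP change of 0.81 ± 0.12 (SE), or 1.75-fold, passed the test (limma adjusted p = 0.000172), and 26 of the 6392 regions were higher. All TBP arrays lay above all Null arrays, and the difference from Null was 0.88 ± 0.17 (0.0037; 4.87% of all regions were called higher in that difference). Mot1 was at 0.60, 0.77, 0.88 and 0.83. It rose by 0.77 ± 0.13 (0.000224), and by 0.84 ± 0.18 over Null (0.00469; 5.02% of all regions were called higher in that difference).

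TAF1 at this promoter was at 0.08, -0.69, 0.03 and 0.13, with 1 array far below the others and a mean of -0.11 ± 0.12 (limma adjusted p = 0.574). Spt3 was at -0.06, 0.24, 0.39 and 0.33, with a mean of 0.22 ± 0.12 (0.314). Bdf1 was at -0.50, -0.17, -0.22 and -0.44, below 0 on all 4 arrays, with a mean of -0.33 ± 0.13 that was not called (0.0722). The Bdf1 change lay below that of TBP by 1.14 ± 0.18, a difference that passed the test (limma adjusted p = 0.00065; 1.02% of all regions were called lower in that difference). The TAF1 change lay below that of TBP by 0.92 ± 0.17, with an adjusted p of 0.0534 that just missed the threshold, and 20 of the 6392 regions had a lower difference. Without TAF1 array B this difference was -0.72 (0.267). It also lay further from the threshold without TBP array A (-0.81, 0.240), B (-0.83, 0.337) or D (-0.93, 0.189). It was called without TBP array C (-1.12, 0.00329), TAF1 array D (0.0443), Mot1 array A (0.0461) or Null array A (0.0396). The Bdf1 change was called without TAF1 array B (0.0262) or TBP array C (0.0439). The RNA of YAR1, which shares this region, fell by 1.26 ± 0.21 on the log2 scale (0.0039), opposite to that of HSP82.

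The HSC82 promoter gained Mot1. Mot1 was at 0.29, 0.81, 0.57 and 0.70 there, against 0.39, 0.02, 0.01 and 0.18 on the Null arrays, so that the lowest Mot1 array lay within the Null range. Its change of 0.59 ± 0.10 was called (limma adjusted p = 0.000494), and its difference from Null, 0.44 ± 0.15, was not (0.0689), although it was without Mot1 array A (0.0274), Null array A (0.0496) or Bdf1 array A (0.0386). TBP was at 0.42, 0.44, 0.15 and 0.10, positive on all 4 arrays but overlapping Null, with a mean of 0.28 ± 0.10 that was not called (0.0842). TAF1 was at 0.03 ± 0.10 and Bdf1 at -0.07 ± 0.10. The TBP change was larger at HSP82 than at HSC82 on 4 of 4 arrays, by 0.53 ± 0.29 (SD, n = 4), with p = 0.125 in a two-sided exact sign-flip permutation test, the smallest that 4 arrays can give.

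STI1 was the one promoter of the 9 at which TBP, TAF1 and Mot1 all rose. How many of all regions had all of these rises was not counted. TBP was at 0.78, 0.70, 0.29 and 0.39, TAF1 at 0.87, 0.65, 0.49 and 0.43, and Mot1 at 0.46, 0.83, 1.26 and 0.87. Null was at 0.04, -0.49, -0.05 and 0.18, so all 12 of these values lay above the Null range. TBP rose by 0.54 ± 0.11 (limma adjusted p = 0.00236), TAF1 by 0.61 ± 0.11 (0.000583) and Mot1 by 0.85 ± 0.11 (2.88e-05). The differences from Null were 0.62 ± 0.16 for TBP (0.0186), 0.69 ± 0.16 for TAF1 (0.00744; 7.42% of all regions were called higher in that difference) and 0.93 ± 0.16 for Mot1 (0.00109). The TBP difference from Null was not called without Null array B (0.0786), TBP array A (0.0834) or TBP array B (0.0703).

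Spt3 at the STI1 promoter was at 0.26, 0.32, 0.26 and 0.37, the narrowest spread of any factor there. Its mean of 0.30 ± 0.11 was not called (limma adjusted p = 0.12), and its difference from Null was 0.38 ± 0.16 (0.193). The Spt3 mean was called with arrays scaled to equal spread (0.0197) or with array weights (0.00821). Bdf1 was at -0.04, 0.29, -0.23 and 0.03, around 0. It lay below TAF1 by 0.60 ± 0.16, which was not called (0.238).

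**Figure D3:**
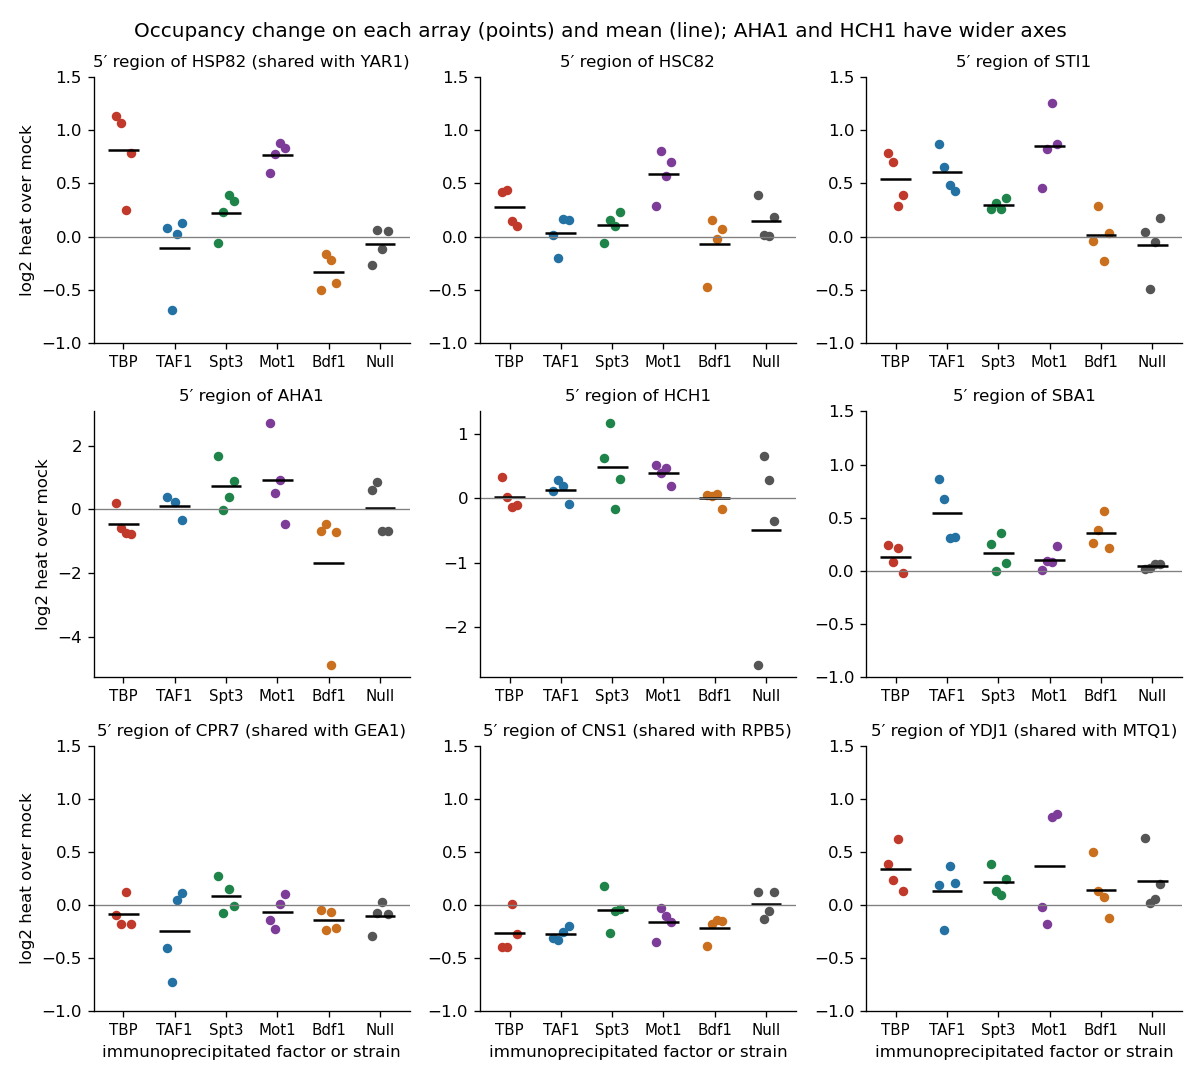
Occupancy change (log2 heat over mock, channel effect taken off) at the 9 promoter regions; each point is 1 array, the line is the mean of the group, the Null strain is on the right of each panel, and the AHA1 and HCH1 panels have wider axes. TBP and Mot1 stand above Null at HSP82, TBP, TAF1 and Mot1 do so at STI1, and the values at AHA1 and HCH1 are spread widely.

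At the SBA1 region, beside a transfer RNA gene, TAF1 and Bdf1 rose. TAF1 was at 0.86, 0.68, 0.31 and 0.32 and Bdf1 at 0.27, 0.39, 0.56 and 0.22, against 0.02, 0.03, 0.07 and 0.06 on the Null arrays. All TAF1 and Bdf1 values lay above all Null values, but only with the channel effect taken off. Before that the Null values were 0.20, -0.15, 0.25 and -0.12. TAF1 array D (0.14) and Bdf1 arrays A (0.09), B (0.21) and D (0.04) lay within their range. TAF1 rose by 0.54 ± 0.08 (limma adjusted p = 8.91e-05), and by 0.50 ± 0.12 over Null (0.00757), a difference not called without the channel coefficient (0.0736) or with array weights (0.0540). Bdf1 rose by 0.36 ± 0.08 (0.005), but not as a difference from Null (0.32 ± 0.12, 0.0913), and its rise was not called without Bdf1 array C (0.0923) or without the channel coefficient (0.146). TBP was at 0.24, 0.08, 0.22 and -0.02 with a mean of 0.13 ± 0.08 (0.354), and Mot1 at 0.10 ± 0.08. The difference of TAF1 from TBP, 0.41 ± 0.12, was not called (0.352). The channel effect at this region, 0.18 ± 0.03, was itself called (0.000667).

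At the region shared by CNS1 and RPB5, TBP and TAF1 were lower, and the RNA of both genes fell. TBP was at -0.39, -0.40, 0.01 and -0.27 and TAF1 at -0.31, -0.33, -0.26 and -0.20, against 0.13, -0.13, -0.06 and 0.12 on the Null arrays. All TAF1 values lay below the Null range, and 1 TBP value lay within it. TBP fell by 0.26 ± 0.07 on the log2 scale (limma adjusted p = 0.0208) and TAF1 by 0.28 ± 0.07 (0.0106). The differences from Null, -0.28 ± 0.10 for TBP (0.114) and -0.29 ± 0.10 for TAF1 (0.0745), were not called, though that of TBP was without TBP array C (0.0317). Bdf1, at -0.39, -0.18, -0.15 and -0.15, had a mean of -0.22 ± 0.08 (0.0521), which was called without any one of 6 other arrays (lowest 0.0276, without TBP array C). RPB5, which encodes a subunit shared by the nuclear RNA polymerases, fell by 0.88 ± 0.19 in RNA (0.0105). The TBP call was lost without TBP array A (0.154), B (0.144) or D (0.0816), and the TAF1 call without TAF1 array A (0.0594) or B (0.0562).

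No factor was called in limma at the promoters of YDJ1, CPR7, AHA1 or HCH1, where 2, 1, 1 and 0 of the 5 factors had an unadjusted p under 0.05. At the YDJ1 and MTQ1 region Mot1 was at -0.02, -0.18, 0.83 and 0.85, in pairs that lay far apart, with a mean of 0.37 ± 0.15 (adjusted p = 0.112). It was called without Mot1 array A (0.0452) or B (0.0287). TBP there was at 0.39, 0.23, 0.62 and 0.13 with a mean of 0.34 ± 0.15 (0.14), and Null at 0.63, 0.01, 0.06 and 0.20. The Mot1 and TBP values at YDJ1 overlapped those of Null. At the CPR7 and GEA1 region TAF1 was at -0.41, -0.72, 0.05 and 0.11, with a mean of -0.24 ± 0.10 (0.0862), called without array C (0.0334) or D (0.0178). The RNA of GEA1 fell by 0.79 ± 0.15 on the log2 scale (0.00654).

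The AHA1 region, whose gene rose 5.31-fold in RNA, gave the least precise values of the 9. The standard error of TBP there was 0.57, against a median of 0.12 over all regions, and the channel effect was -1.24 ± 0.23. TBP was at 0.21, -0.57, -0.72 and -0.76, against 0.62, 0.86, -0.67 and -0.69 on the Null arrays, with a mean of -0.46 and a 95% interval of -1.64 to 0.72. TAF1 had values on 3 of its 4 arrays there, with a mean of 0.10. Bdf1 was at -0.68, -0.45, -4.87 and -0.69, 1 array far from the rest, and Mot1 at 2.69, 0.50, 0.93 and -0.46. The Bdf1 mean of -1.67 (0.0517) rested on array C, without which it was -0.31 (0.766), and it was called without any one of 6 other arrays (lowest 0.0364, without Bdf1 array B). At HCH1 Null was at -2.58, 0.65, 0.29 and -0.35, wider than any factor. TBP at HCH1 was at 0.34, 0.02, -0.13 and -0.11, with a mean of 0.03 ± 0.29. Spt3 at HCH1, at 0.63, 1.16, -0.17 and 0.30, had a mean of 0.48 ± 0.29 (0.374) that was called without Null array A (0.0349).

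Set against Null, 6 changes at the 9 regions were called, 2 each for TBP, TAF1 and Mot1, all higher. For these differences 2.1% of all regions were called lower for TBP, 4.07% for TAF1 and 1.94% for Mot1. Spt3 minus Null (0.767% of all regions called higher, 0.188% lower) and Bdf1 minus Null (4.74% and 3.97%) were called at 0 of the 9 in limma, with 2 and 3 at an unadjusted p under 0.05 (18.9% and 26% of all regions). Among the differences between factors, Bdf1 minus TBP was called lower at 1 region, HSP82 (1.02% of all regions lower, 0.375% higher). In limma 0 of the 9 were called for TAF1 minus TBP (0% of all regions higher, 0.0156% lower), Spt3 minus TBP (0.845% and 0.501%), Mot1 minus TBP (0.36% and 0.125%), Spt3 minus TAF1 (2.07% and 1.99%) or Bdf1 minus TAF1 (0% and 0%). At an unadjusted p under 0.05 these had 2, 2, 1, 3 and 1 of the 9, against 4.76%, 12.9%, 14.8%, 18.5% and 7.54% of all regions.

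**Figure D4:**
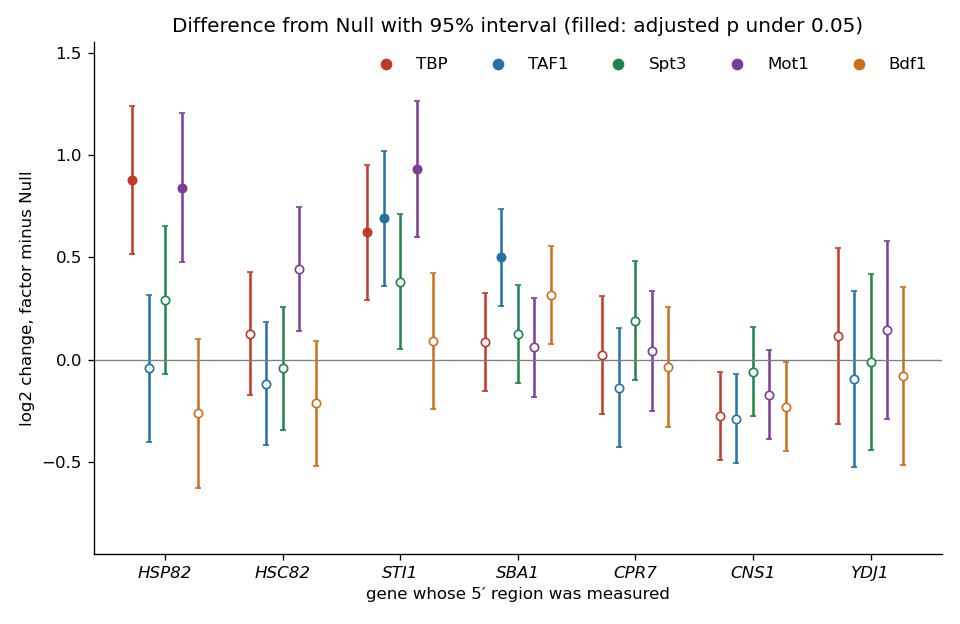
Difference of each factor's change from that of Null at 7 promoter regions (log2), with the 95% interval of the limma fit; filled points were called and open points were not, and the AHA1 and HCH1 regions are left out for their wide intervals. The 6 filled points are TBP and Mot1 at HSP82, TBP, TAF1 and Mot1 at STI1, and TAF1 at SBA1.

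Over the 9 genes with both measures the TBP and RNA estimates had one sign at 8, the exception being AHA1, against 63% of the 2486 other regions that serve 1 promoter. At 3 of the 9 both were called. How many of the other regions had both called was not counted, so that 3 has nothing to be set against. Some of these estimates lay near 0 (TBP at HCH1, RNA of YDJ1), and under the other ChIP reading the count is 1 of 9, against 37%. The sets also differ, since the regions of HSP82, CPR7, CNS1 and YDJ1 are shared with another gene. The ChIP direction was itself read from TBP running with RNA at the other regions. The genes with the largest called TBP rises, HSP82 and STI1, had RNA changes of 2.13 and 1.85, and the region with the called TBP fall served CNS1 with an RNA change of -1.31. HCH1 and HSC82, with RNA changes of 1.31 and 1.11, had TBP changes of 0.03 ± 0.29 and 0.28 ± 0.10. The regions most like that of HSP82 over the changes of the 5 factors, by Euclidean distance among named regions that hold a promoter and with the 10 genes left out, were those serving DDR2 (distance 0.30, TBP 0.66, Mot1 0.83, TAF1 0.12, RNA 4.70), YGP1 (distance 0.30, TBP 0.67, Mot1 0.67, TAF1 -0.02, RNA 3.84) and IDH2 (distance 0.40, TBP 0.79, Mot1 0.70, TAF1 0.16, RNA 1.61).

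**Figure D5:**
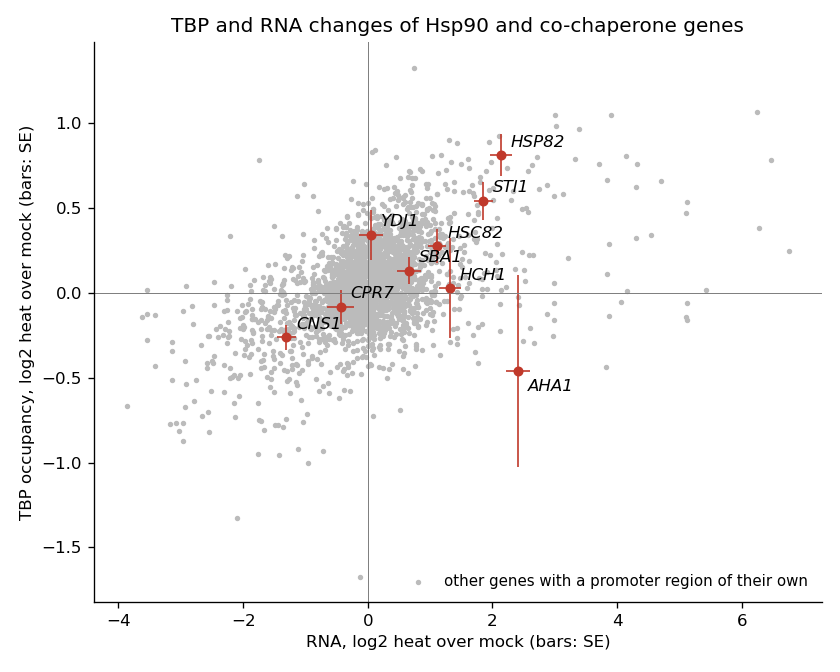
TBP change against RNA change (both log2 heat over mock) of the 9 genes in red with their SEs, over 2486 regions serving 1 promoter of other genes in grey. HSP82 and STI1 lie at the upper right, CNS1 at the lower left, and AHA1 (RNA 2.41, TBP -0.46) has the longest TBP error bar.

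At the promoters of the Hsp70 and disaggregase genes, 9 of 10 measured, TBP rose at 5 and fell at 1, with a median of 0.36. For TBP 8.35% of all regions were called higher and 4.01% lower. Mot1 rose at 6 and fell at 0, with a median of 0.49 (8.57% and 4.18% of all regions). Bdf1 rose at 3 and fell at 1 (8.42% and 7.81%). TBP rose by 1.05 ± 0.19 at SSE2, an Hsp110 gene (limma adjusted p = 0.000816), by 0.98 ± 0.16 at HSP104 (0.00038) and by 0.78 ± 0.16 at SSA4 (0.00219). The TBP fall was at SSA3 (-0.44 ± 0.10, 0.00553), opposite to its RNA rise of 3.82. Bdf1 fell there too (-0.44 ± 0.10, 0.0053). TAF1 rose at 3 and fell at 0 (12.2% and 8.67% of all regions). Its rises included SSE2 (1.24 ± 0.19, 0.000103) and SSA4 (0.61 ± 0.16, 0.00905), and it was not called at HSP104 (0.35 ± 0.16, 0.137). Among 7 promoters of the other Hsp90 cofactors TAF1 fell at 2 (8.67% of all regions were called lower). These were PPT1, shared with YNCG0033W (-0.51 ± 0.10, 0.000909), and SGT1, shared with NOB1 (-0.38 ± 0.07, 0.000812). Bdf1 fell at the same 2 (7.81% of all regions), by -0.65 ± 0.10 at PPT1 (0.000181) and -0.25 ± 0.07 at SGT1 (0.0223). Mot1 fell at 1 (4.18% of all regions), RVB1, shared with HST4 (-0.33 ± 0.11, 0.0488). Among 5 client promoters SLT2 was the one called, with TBP at 0.64 ± 0.13 (0.00192), TAF1 at 0.60 ± 0.13 (0.00202) and Mot1 at 0.57 ± 0.13 (0.0052).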

How the data were processed

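The authors deposited log2 ratios between the channels, for 28 arrays of intergenic regions and 4 of gene probes. Per the labels, scanning used a GenePix 4000A and spot extraction GenePix Pro 4.0; how background was corrected, how ratios were normalized and which channel was the numerator is not given in the sources used. Each array was centred on its median and turned to heat shocked over mock treated cells. limma 3.58.1 in R 4.3.3 was fitted to the 6392 of 7047 regions measured on 3 or more arrays in each group, with 1 heat coefficient per group and 1 channel coefficient, and to probes with a value on both heat arrays and at least 1 mock array (6772 of 7056). Tests were two-sided. The array count limits the precision.

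Genes were paired with 5574 probes and 5693 regions by the platform annotation and with neighbours by a RefSeq table (assembly R64, no coordinates used). A region was placed right of the gene that names it: over 1277 tandem Crick-strand regions TBP followed the RNA of the named gene (Spearman rho 0.42), and over 1209 Watson-strand ones that of the right neighbour (rho 0.47), members left out. As-deposited arrays of opposite channel order correlated at -0.69 for RNA, -0.29 to 0.02 for TBP, -0.38 to 0.03 for Mot1, -0.14 to 0.15 for Bdf1, 0.01 to 0.26 for TAF1, 0.03 to 0.21 for Spt3, 0.14 to 0.41 for Null and 0.30 to 0.44 for input DNA; that none had been turned beforehand was assumed. All 10 members were named, and at most 3 called genes of each other list for each measure, with SSA3 added for its TBP fall. Members and lists were chosen with earlier results of these data known. The fits were tested on simulated data. The alternatives were other centring, scaling, weights, filters, no channel effect, a replicate block, and leaving out arrays.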

Additional observations from a re-analysis of the deposited data

Results flagged for a closer look

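Among 53 sets of 4 arrays at the 9 regions, 4 held an array flagged by Dixon's test. The gap of each to its nearest value, divided by the range of its set, exceeded the critical value of 0.829. Chance gives this in about 1 set of 20. The flagged arrays were TAF1 array B at HSP82 (-0.69), Bdf1 array C at AHA1 (-4.87), Bdf1 array D at HCH1 (-0.16) and Bdf1 array A at CNS1 (-0.39).

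Tests of the difference between groups passed at 3 regions. At HSP82 Bdf1 minus TBP was -1.14, TBP minus Null 0.88 and Mot1 minus Null 0.84. At STI1 the differences from Null were 0.62 for TBP, 0.69 for TAF1 and 0.93 for Mot1, and at SBA1 that of TAF1 was 0.50.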

How the results depend on the processing

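The shares of all probes or regions called were not counted under the alternatives or with 1 array left out. The counts of called members below therefore have nothing to be set against. Those that moved by over 1.5 times, or turned in direction, were these. With arrays scaled to equal spread 4 genes were called in RNA (8 as reported), 1 region for Spt3 (STI1) and 1 for TAF1 minus TBP. With array weights there were 3 for Spt3 (HSP82, STI1 and HCH1), 3 for Bdf1, 1 for TAF1 minus Null, 3 for Bdf1 minus TBP and 1 for TAF1 minus TBP. Without a channel coefficient TAF1 minus Null had 1, and with values required on all 4 arrays TAF1 minus TBP had 1. Without centring, where the medians over all regions lay at -1.16 for Mot1, -0.91 for Null and 0.18 for TBP, 0 members were called for TBP, TAF1, Bdf1, Mot1 minus Null, TAF1 minus Null and Bdf1 minus TBP, 7 for Null (all lower) and 7 for TBP minus Null (all higher). Mot1 then turned to -0.39 at HSP82, -0.57 at HSC82, -0.31 at STI1, -1.06 at SBA1 and -0.79 at YDJ1, of which the SBA1 and YDJ1 values were called, as were those of CPR7 (-1.22) and CNS1 (-1.32), so that 4 were called lower and 0 higher for Mot1 (3 higher as reported); and Null turned to -0.76 at HSC82, -0.86 at SBA1 and -0.89 at CNS1. Smaller moves included 7 RNA calls without centring or with array weights, and with array weights 4 for Mot1, 3 for Mot1 minus Null and 3 for TBP minus Null. The cause of these shifts was not tested; changes here are relative to array medians.

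Leaving out 1 array gave 6 to 8 called genes in RNA, 2 to 3 regions for TBP, 2 to 4 for TAF1, 0 to 1 (without Null array A) for Spt3, 3 to 4 for Mot1, 0 (without Bdf1 array C) to 3 (without Mot1 array A, Null array A or TBP array C) for Bdf1, 1 to 3 for TBP minus Null, 2 to 3 for Mot1 minus Null and 0 to 1 for TAF1 minus TBP. Among the ChIP arrays of the same letter, deviations from the group means correlated at medians of -0.10 to -0.01, so the letters were not taken to pair samples; with the replicate block Bdf1 had 2 called regions, AHA1 included (adjusted p = 0.0495), Mot1 at YDJ1 was called (0.0480) and SBA1 RNA was not (0.0705).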
